A study of Mus musculus with 16 samples.

Results

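The cytosolic ribosomal protein genes were followed in basal epithelial cells from 2 sites of the mouse eye, the limbus and the cornea. Members were all probe sets annotated to 1 protein-coding symbol that begins with Rpl or Rps and a digit, together with those of the stalk proteins and of Rpsa. Ribosomal protein kinases, pseudogenes and Rps19bp1 were left out. The rule found 104 probe sets of 48 genes among 45037 probe sets, and 90 of these probe sets, for 46 genes, were bright enough to be tested among 27022 probe sets and 13570 genes. The other 14 probe sets included all those of Rps16 and of Rpl3l, so both genes went untested. A further 110 ribosomal protein probe sets list several symbols, mostly the gene and a pseudogene, and were not used here. Several members of the ribosome, among them Rplp1, Rpl3, Rpl5 and Rpl10, had no probe set that met the rule and were not analysed here.

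The limbus is the rim between cornea and conjunctiva, where stem cells of the corneal epithelium lie. From each of 8 wild-type mice, 300 limbal and 300 corneal basal cells were collected by laser capture microdissection, and their RNA was amplified, labelled with biotin and hybridised to an Affymetrix mouse array. This gave 8 limbal and 8 corneal arrays, paired by mouse. The labels give neither the strain, the age nor any treatment.

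Each cytosolic ribosome joins a small subunit, which decodes the mRNA, to a large subunit, which forms the peptide bond and carries the stalk that recruits elongation factors. Their proteins are needed in about equal numbers, and their mRNAs are among the most abundant in dividing cells. Many of these mRNAs start with a C and a run of pyrimidines, the terminal oligopyrimidine motif, through which growth signalling adjusts their translation. In the cornea, basal cells divide and feed the layers above them, and limbal stem cells renew the basal layer.

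Levels are given as the authors' signal, a brightness with no unit, or as log2 of the signal plus 89.4, the 25th percentile of all values. A signal depends on the probes of its probe set, so it does not rank the mRNAs of different genes. A gene is given by its brightest tested probe set, and a difference is limbal minus corneal on the log2 scale, with its standard error (SE). Tests were made with limma, with the mouse as a term, and a gene was called at a Benjamini-Hochberg adjusted p under 0.05 over all tested probe sets. In captured tissue, fewer cells of a type and less mRNA per cell cannot be told apart.

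The arrays were scanned on 3 days: those of mice 1 and 2 on day 1, of mice 3 to 5 on day 2, and of mice 6 to 8 on day 3. Both arrays of a mouse shared a day. The corneal array of mouse 5 stood apart, with a median correlation of 0.17 with the other 15 arrays. The median log2 level of the 46 ribosomal protein genes there was 9.41, against 11.76 to 15.19 on the other corneal arrays and 10.47 to 14.94 on the limbal arrays. On that array 6 of the 46 probe sets were among the brightest 10% of the array, against 24 to 41 on the others. The ratio of the 3′ to the 5′ actin control was 1.04 on it, against at least 6.08 on the other 15 arrays, and that for Gapdh was 1.22, within the range of 0.74 to 8.42 of the others. All 5 markers of corneal epithelium were tested, and their median log2 level lay between 12.33 and 15.15 on limbal arrays and between 9.08, on the corneal array of mouse 5, and 16.28 on corneal arrays. The sample name in the array header equalled the title on 2 of 16 arrays and ended in the title's letter for limbus or cornea on 10. Both arrays of mouse 2 carry the number 3 in that name, and mouse 2 was the mouse with the weakest pairing (correlation of deviations 0.03). The names of the 6 arrays of scan day 2 do not end in the title's letters. The groups here follow the titles.

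**Figure D1:**
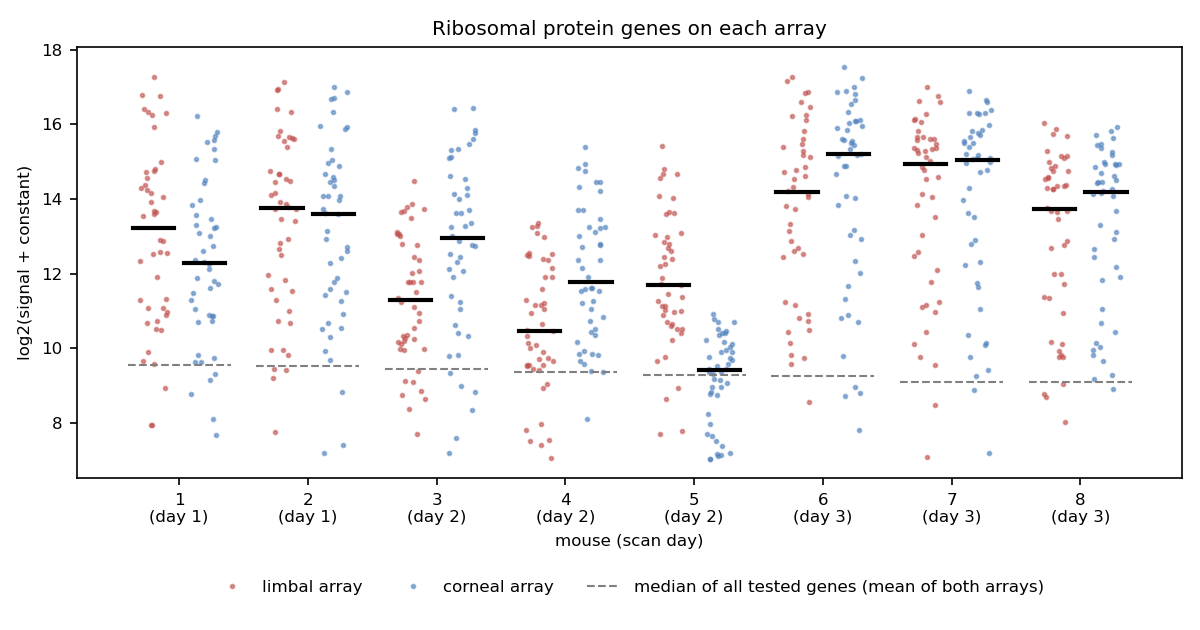
Each point is 1 of the 46 ribosomal protein genes on 1 array, with the mouse and its scan day on the x axis and log2 of the signal plus 89.4 on the y axis. The black bar is the members' median and the dashed line the median of all tested genes. The corneal array of mouse 5 has a member median of 9.41, close to the median of all genes, and all arrays of scan day 3 have member medians of at least 13.72.

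The first question was whether limbal basal cells differ from corneal basal cells in these mRNAs. No ribosomal protein gene passed the test: 0 of 46 genes were called, against 18 of 13570 tested genes (0.133%). An unadjusted limma p under 0.05 was reached by 0 of the 46, against 911 of the 13570 tested genes. Of the 90 probe sets 0 were called (0.0851% of all probe sets), and 1 had an unadjusted p under 0.05. On limbal arrays 22 genes were higher and 24 lower, with a median difference of -0.03 (0.01 over all tested genes). The differences ran from -0.68 to 0.80, with SEs of 0.39 to 0.87. The 95% interval contained 0 for all 46 genes. Those intervals had a median half-width of 1.06, and they lay within 1 log2 unit of 0 for 4 genes. In no member gene were the limbal arrays apart from the corneal arrays without overlap, a count that was not made over all tested genes.

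Among the 22 genes of the large subunit, 9 were higher and 13 lower on limbal arrays, with a median difference of -0.08. Rpl11, which with Rpl5 and the ribosomal RNA of the same particle binds Mdm2 when assembly fails, had a signal of 404 to 11566 (median 2854) on limbal arrays and of 408 to 16460.0 (median 3813) on corneal arrays. The groups overlapped over nearly their whole range. Its difference was -0.49 ± 0.44 (SE, 8 mice, limma adjusted p = 0.91), and it was higher in limbus in 3 of 8 mice. Rpl41, which encodes the shortest ribosomal protein, ranged over 715 to 18329 (median 10536) on limbal arrays and over 1572 to 26718 (median 10455) on corneal arrays. The lowest values of Rpl41 were those of mouse 4 among limbal arrays and of mouse 5 among corneal arrays, and the difference was -0.42 ± 0.52 (limma adjusted p = 0.95). Of the stalk, Rplp0, the scaffold on which the acidic P proteins sit, had signals of 94.7 to 6086 (median 2765) on limbal arrays and of 369 to 9118 (median 3434) on corneal arrays. It was lower in limbus in 6 of 8 mice, by -0.34 ± 0.42 (limma adjusted p = 0.95). Rplp2, an acidic P protein that contacts elongation factors, differed by -0.24 ± 0.45, and Rpl12, at the base of the stalk, by -0.28 ± 0.44.

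Among the 20 tested genes of the small subunit, 11 were higher and 9 lower in limbus, with a median difference of 0.11. Rps25, a small subunit protein used in initiation at some viral internal entry sites, had signals of 337 to 2323 (median 1319) on limbal arrays and of 55.9 to 2021 (median 733) on corneal arrays. It was the only member with 1 sign in all 8 mice, higher in limbus each time, which held for 1.19% of all tested genes. Most of that came from mice 1, 2 and 3, with differences of 2.82, 1.04 and 1.55, while the other 5 mice lay between 0.09 and 0.30. The corneal signals of mice 1 and 3 were 116 and 55.9, near or below the added constant. The mean log2 level was 10.21 ± 0.81 on limbal arrays and 9.44 ± 1.36 on corneal arrays (SD, n = 8 each), a difference of 0.78 ± 0.41 (SE, limma adjusted p = 0.80). Rps29, a small zinc-binding protein, had signals of 8666 to 117681 (median 66725) on limbal arrays and of 42.8 to 102236 (median 48310.4) on corneal arrays. Its lowest corneal value was that of mouse 5, and the next lowest corneal signal was 22267. The difference of Rps29 was 0.80 ± 0.81 (limma adjusted p = 0.93) over 8 mice and -0.17 ± 0.47 without mouse 5. Rps18, of the head of the subunit, showed the same array at 76.8 and had a difference of 0.54 ± 0.87 over 8 mice and -0.42 without mouse 5. Rps27, another zinc-binding protein, was lower in limbus in 7 of 8 mice, with signals of 81.5 to 2159 (median 343) on limbal arrays and of 112 to 1378 (median 537) on corneal arrays. Mouse 5 was the exception, at 2159 in limbus and 112 in cornea, and the difference was -0.44 ± 0.49 (limma adjusted p = 0.94). Rps6, the substrate of the S6 kinases, differed by 0.24 ± 0.39. Rpsa, which also bears the name of laminin receptor, differed by 0.26 ± 0.66, and Rps19, mutated in human Diamond-Blackfan anaemia, by -0.03 ± 0.40. Each of these 3 intervals spanned 0.

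Some ribosomal proteins have paralogs, copies from another gene that can replace them in certain tissues or take other roles. Rpl7l1, a paralog of Rpl7, had signals of 118 to 2201 (median 1283) on limbal arrays and of 799 to 3170.3 (median 1678) on corneal arrays. It was lower in limbus in 7 of 8 mice and had the lowest fitted difference of all members, -0.68 ± 0.39 (SE, limma adjusted p = 0.81). Mouse 3 was farthest out, with 118 in limbus and 799 in cornea. Rpl22l1, a paralog of Rpl22, was higher in limbus in 5 of 8 mice, with signals of 156 to 1415 (median 839) on limbal arrays and of 48.7 to 1220.1 (median 577) on corneal arrays. Its difference was 0.56 ± 0.42 (limma adjusted p = 0.88), while that of Rpl22 itself was -0.03 ± 0.58. Rpl39l, a paralog of Rpl39 known from testis, was near the filter, with medians of 241 on limbal and 149.6 on corneal arrays and a difference of 0.39 ± 0.50. Rps27l, a paralog of Rps27 and a known p53 target, differed by -0.04 ± 0.46. Rpl3l, the paralog of Rpl3 in striated muscle, failed the filter on low values. Its signal on limbal arrays was 252 or less in mice 1, 2, 3, 4 and 7 and 485 or more in mice 5, 6 and 8, the highest at 686. On corneal arrays it was at most 172 except in mouse 8, at 534. Myh1, a myosin of skeletal muscle fibres, was at 123292, 82243.6 and 69497 on the limbal arrays of mice 5, 6 and 8 and at 66736 on the corneal array of mouse 8, and also at 127244 and 47503 on the limbal and corneal arrays of mouse 1, where Rpl3l was at 138 and 87. The part of muscle RNA in the Rpl3l signal was not tested.

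**Figure D2:**
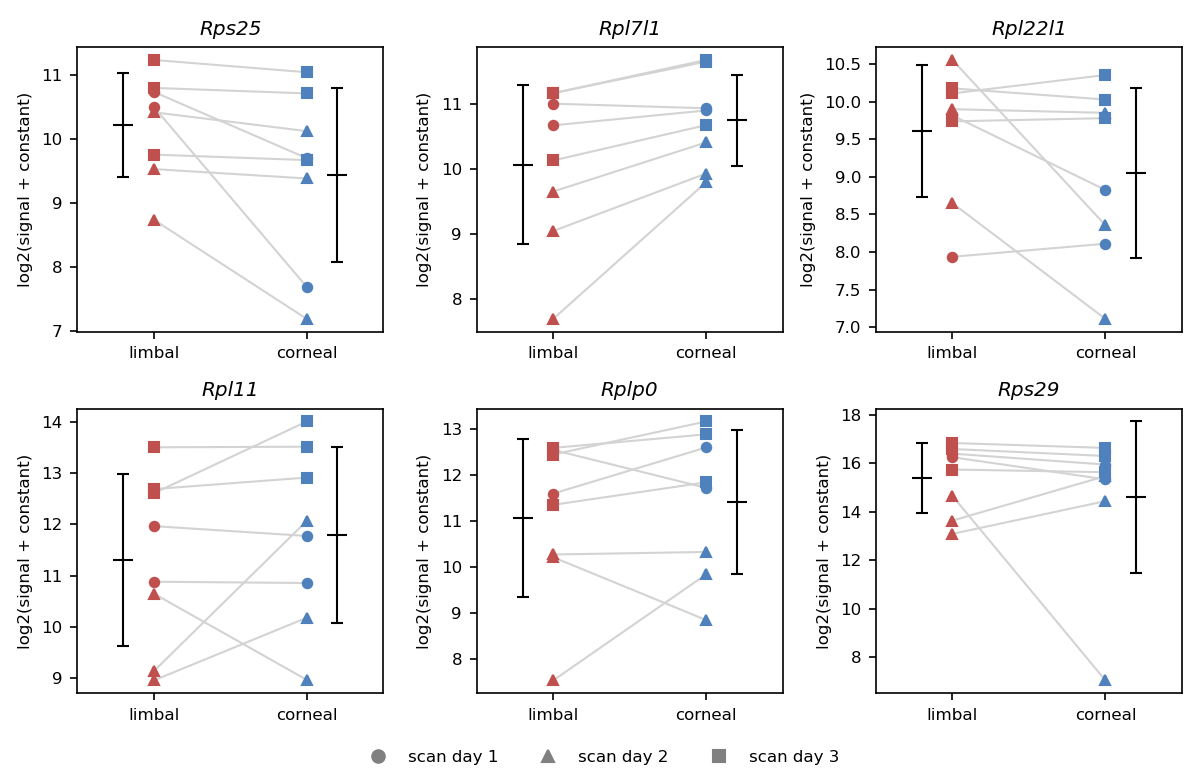
Log2 of the signal plus 89.4 (y axis) of 6 named genes on limbal and corneal arrays (x axis). Each marker is an array, lines join the arrays of a mouse, the marker shape gives the scan day, and the bars beside them are the mean and SD of 8 arrays. All 8 lines of Rps25 run higher in limbus and 7 of 8 lines of Rpl7l1 run lower, and in every panel the groups overlap.

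**Figure D3:**
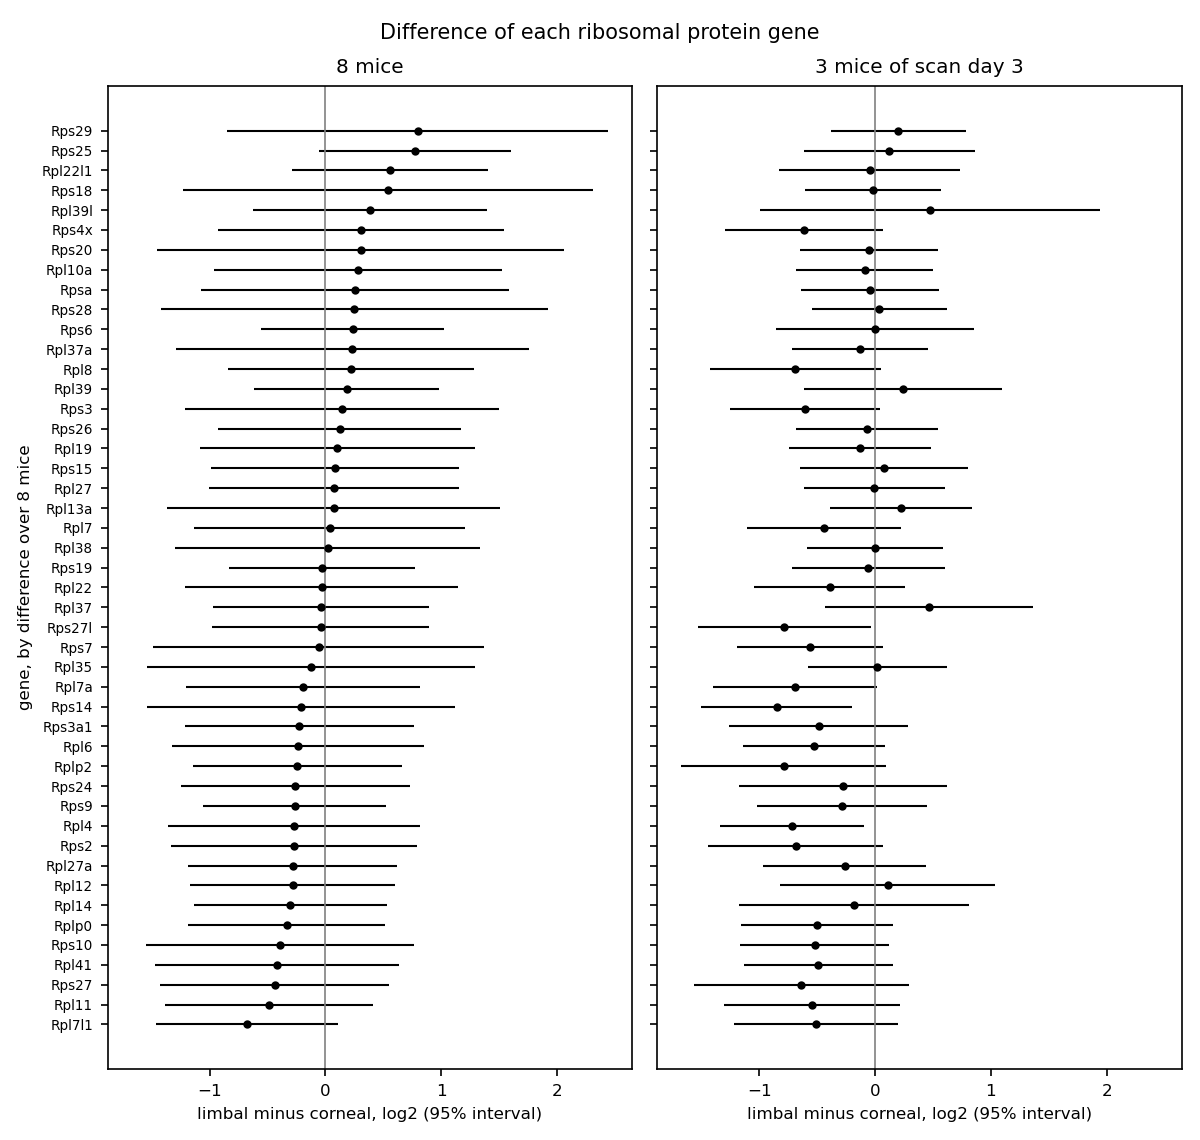
Limbal minus corneal difference (x axis, log2) of each of the 46 genes (y axis) with its 95% interval from limma, over 8 mice on the left and over the 3 mice of scan day 3 on the right. All intervals on the left contain 0. On the right, those of Rps14, Rpl4 and Rps27l lie below 0.

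Within a mouse the ribosomal protein genes shifted together, and the direction differed from mouse to mouse. The median difference of the 46 genes was 0.73 in mouse 1, 0.18 in mouse 2, -1.65 in mouse 3, -1.43 in mouse 4, 2.45 in mouse 5, -0.38 in mouse 6, -0.00 in mouse 7 and -0.20 in mouse 8. In those mice 40, 31, 4, 5, 41, 10, 21 and 5 of the 46 genes were higher in limbus. The median over all tested genes stayed between -0.11 and 0.13 in every mouse. So mice 3 and 4 had most members lower in limbus, mouse 5 had most of them higher, and mouse 7 was evenly divided. The SD of the members' median over mice was 1.28. A typical member had an SD of 1.55 over mice, which came to 0.91 once each mouse's member median was subtracted, against 1.23 for a typical tested gene without any subtraction.

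Other genes of the translation apparatus took similar signs. The elongation factors and nascent chain proteins had median differences of 0.79, 0.36, -1.48, -0.56, 1.91, -1.17, 0.11 and -0.08 in mice 1 to 8. For the initiation factors the medians were 0.45, 0.25, -1.34, -1.08, 1.76, -0.72, -0.39 and -0.13. The 74 mitochondrial ribosomal protein genes stayed between -0.59 and 0.30. The 5 markers of corneal epithelium had medians of 0.87, -0.48, -1.70, -1.03, 4.82, -2.23, -0.73 and -0.67. Their sign matched that of the ribosomal protein genes in 7 of 8 mice, counting mouse 7 at -0.00, and their shift in mouse 5 was larger. The medians of all tested genes and of the mitochondrial ribosomal protein genes, though smaller, also matched in sign in 7 of 8 mice. Those of the ribosome biogenesis genes matched in all 8, so a matching sign is not particular to the markers. Stroma markers were at 2.97, 4.59, 1.43, -0.08, 0.45, 5.03, 3.10 and -0.41, and all 7 of them were higher in limbus over the 8 mice (2 called by limma). All 6 immune and all 3 tested conjunctiva markers were also higher in limbus, with 1 called in each list. The 5 markers of corneal epithelium were divided over the 8 mice, with 2 higher and 3 lower in limbus and 0 called. The part of other cell types, or of RNA quality, in the ribosomal protein shifts was not tested.

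**Figure D4:**
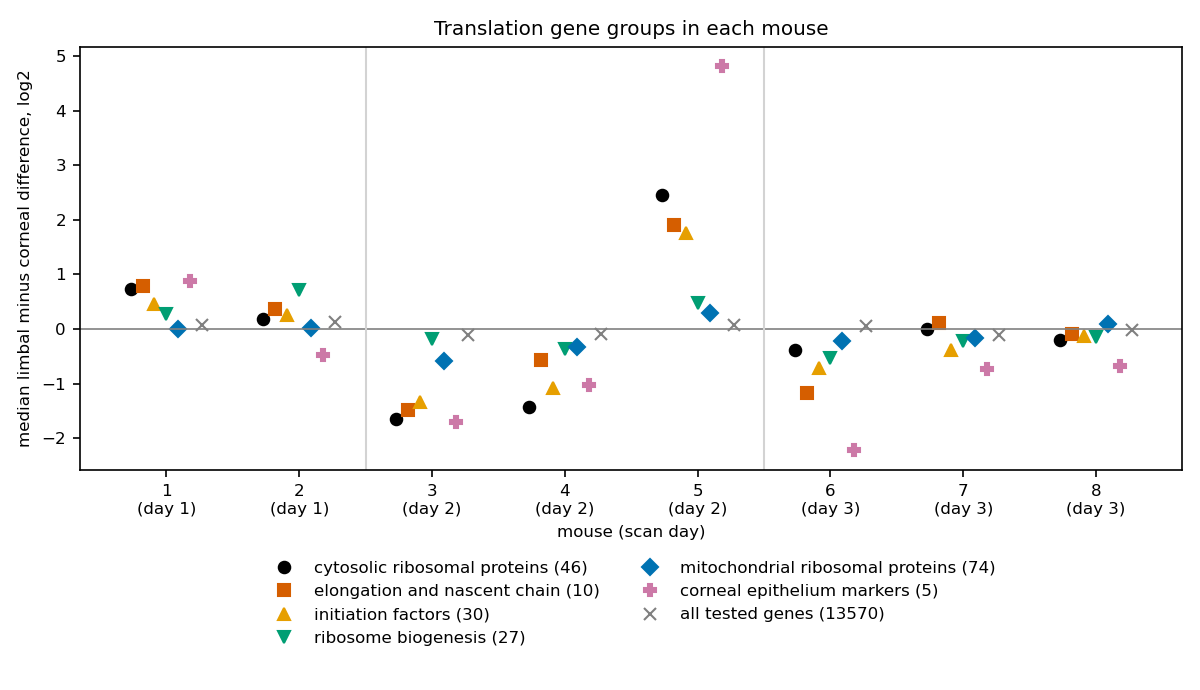
Median limbal minus corneal difference (y axis, log2) of each gene group in each mouse (x axis, with scan day). The ribosomal protein genes (black circles) run from -1.65 in mouse 3 to 2.45 in mouse 5, the corneal epithelium markers from -2.23 in mouse 6 to 4.82 in mouse 5, and all tested genes stay near 0.

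The sign of many members depended on which mice were counted. Without mouse 5, 42 of the 46 genes were lower in limbus (91.3%, against 50.5% of all tested genes), with a median of -0.43, and 0 were called by limma. That set still holds mice 3 and 4 of scan day 2. Without the whole of scan day 2, an alternative chosen after seeing the data, 22 of 46 were lower (47.8%, against 46.8% of all tested genes), with a median of 0.02 and 0 called. Without mouse 5 an unadjusted p under 0.05 was reached by 2 members (4.35%, against 7.54% of all tested genes), Rps10 (-1.05 ± 0.46, limma adjusted p = 0.66) and Rps27 (-0.998 ± 0.44, limma adjusted p = 0.67). All 22 large subunit genes and 18 of 20 small subunit genes were lower without mouse 5. Scan days 1 and 3 leaned opposite ways. On scan day 1 alone, with 2 mice whose arrays had median correlations of 0.47 to 0.52 with the others, 8 of 46 genes were lower (17.4%, against 44.7% of all tested genes), with a median of 0.48 and 0 called. On scan day 3 alone, with 3 mice and median correlations of 0.49 to 0.55, 35 of 46 genes were lower (76.1%, against 52.1% of all tested genes), with a median of -0.22 and 0 called. The median SE of members was 0.30 there, against 0.43 for all tested genes, and the 95% intervals of 19 genes lay within 1 log2 unit of 0. The intervals of 3 genes (6.52%) lay below 0, and 10% of all tested genes had an unadjusted p under 0.05 there, so this share is not above the background. Rps14, of the platform of the small subunit, differed by -0.85 ± 0.29 (limma adjusted p = 0.46). Rpl4, which lines the exit tunnel, differed by -0.72 ± 0.28 (limma adjusted p = 0.52), and Rps27l by -0.78 ± 0.34 (limma adjusted p = 0.56). On the same day 29 of 30 initiation factors were lower in limbus, with a median of -0.43. When the difference itself was compared between scan days, 0 of 13570 genes were called (0%). There 0 of the 46 members had an unadjusted limma p under 0.05, against 746 of the 13570 tested genes.

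With each array centred on the median of the member genes, an alternative chosen after seeing the data, the differences show how members moved against each other. None was called by limma (0 of 46), and Rps29 alone had an unadjusted p under 0.05, with 0.94 ± 0.39, higher in limbus in 5 of 8 mice. Before centring, Rps29 differed by 7.62 in mouse 5 and by at most 0.91 in the other mice. Its signal on the corneal array of mouse 5, the array that stood apart, was 42.8, below the added constant. The centred difference without mouse 5 was not tested.

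The members did not all follow the shared shift. As a description over the 8 mouse differences, 33 of 46 genes (71.7%) had a correlation of at least 0.8 with the median of the other members, against 811 of 13524 genes that are no members (6%). The median correlation was 0.92 for members and 0.04 for the other genes. Without mice 5 and 3, the mice farthest from the median shift, 23 members (50%) and 9.45% of the other genes reached 0.8, with medians of 0.79 and 0.07. These points share arrays and differ in depth of signal, so the values describe these 16 arrays. Rpl37a, Rps7 and Rpl19 had the highest correlations, each 0.99. The 33 genes had mean log2 signals of 11.01 to 15.66. Rpl12 (-0.42), Rpl14 (-0.35), Rpl39l (-0.23), Rps25 (0.04) and Rpl22l1 (0.04) were lowest, all with dim probe sets of mean log2 signal 8.47 to 9.83. Of these 5 genes 3 also have a probe set with several symbols that was not used here. The value of Rpl14, a large subunit protein, rested on mouse 5, where its signal was 120.1 in limbus and 764 in cornea and most members were higher in limbus. Without that mouse its correlation was 0.45, that of Rps25 was 0.33 and that of Rpl22l1 was -0.53, while Rpl12 (-0.41) and Rpl39l (-0.20) kept their sign. Rpl12 in the same mouse was at 774 in limbus and 1584 in cornea.

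**Figure D5:**
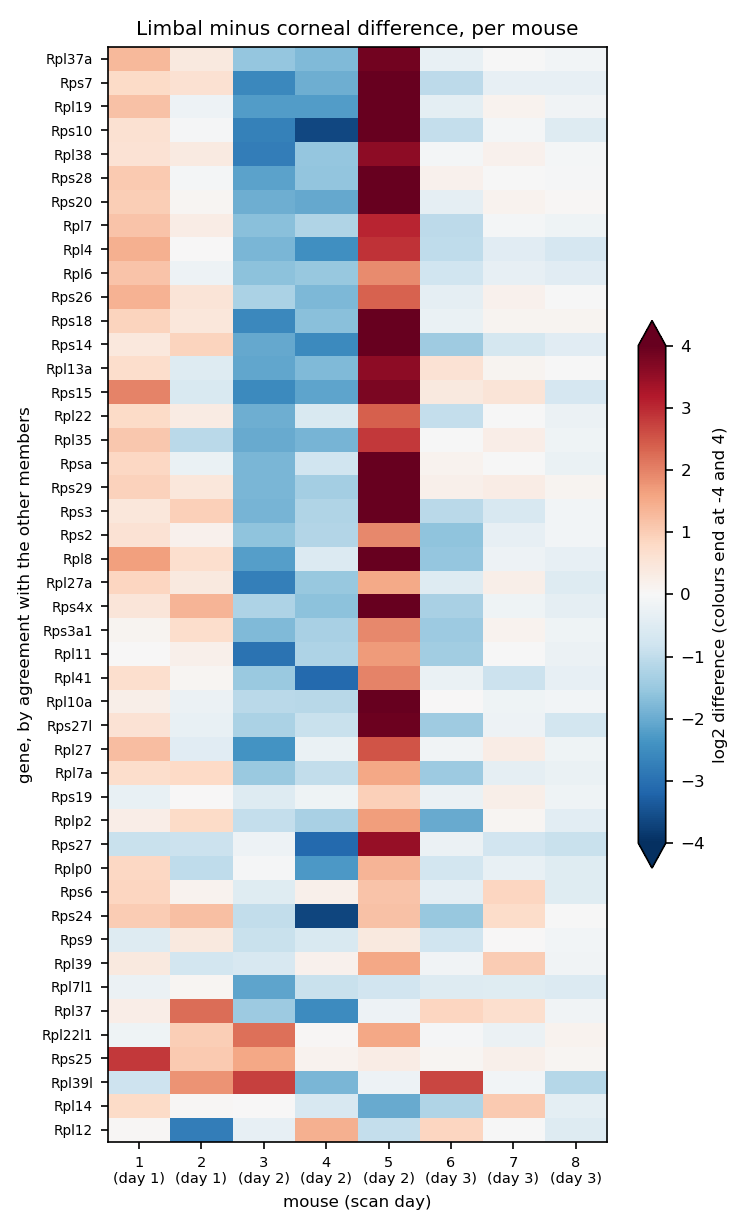
Limbal minus corneal difference (colour, log2, red higher in limbus) of each of the 46 genes (rows, from the highest to the lowest correlation with the other members) in each mouse (columns, with scan day). The upper rows are red in mice 1 and 5 and blue in mice 3 and 4, and the lowest rows, from Rpl22l1 to Rpl12, do not share that pattern.

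Because most members moved together, the sequence around their transcription starts is shown for the 5 genes of highest and 4 of lowest correlation that have 1 start in RefSeq. Each window holds the 15 bases before the start and the 15 from it on, from RefSeq on GRCm38.p6, read 5′ to 3′ on the strand of the gene. Capitals mark runs of at least 7 bases that are C or T.
Rpl37a, chr1:72711245-72711274 (+): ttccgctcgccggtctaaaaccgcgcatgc
Rps7, chr12:28635939-28635968 (-): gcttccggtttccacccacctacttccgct
Rps10, chr17:27635230-27635259 (-): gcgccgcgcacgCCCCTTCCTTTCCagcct
Rpl38, chr11:114668565-114668594 (+): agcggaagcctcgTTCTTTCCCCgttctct
Rps28, chr17:33824548-33824577 (-): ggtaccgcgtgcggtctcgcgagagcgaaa
Rpl12, chr2:32961697-32961726 (+): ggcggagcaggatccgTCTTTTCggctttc
Rpl14, chr9:120571502-120571531 (+): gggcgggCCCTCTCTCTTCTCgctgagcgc
Rpl39l, chr16:10170213-10170242 (+): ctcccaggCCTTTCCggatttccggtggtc
Rps25, chr9:44407699-44407728 (+): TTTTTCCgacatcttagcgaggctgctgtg
Rps10 and Rpl38 carry a run across the start and each had a correlation with the other members of 0.98 over 8 mice and of 0.95 without mouse 5. Rpl14 carries the longest run of the 9, which also lies across the start, with a correlation of -0.35 over 8 mice and 0.45 without mouse 5. Rpl37a, Rps7 and Rps28, all correlated with the others at 0.96 or more in both cases, hold no such run in these letters.

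RefSeq entries were found for 43 of the 48 genes, with 51 starts. A run of at least 7 C or T bases within 15 bases of the start was found at 24 of 51 (47.1%), against 6095 of 32851 promoters of all genes (18.6%). A C at the start followed by 4 bases that are C or T was found at 8 of 51 (15.7%, against 2.51%). The letters CCGGAAG, on either strand of the 300 bases from 250 before the start, were found at 21 of 51 (41.2%, against 8.86%). Members with a run had a median correlation with the other members of 0.85 (24 genes) and those without of 0.93 (17 genes). A match describes letters and not a site in use.

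The level of the ribosomal protein genes, averaged over both arrays of a mouse, differed between scan days. By limma's F test 35 of the 46 genes were called (76.1%), against 4369 of 13570 tested genes (32.2%), and of the 90 probe sets 67 were called (29.5% of all probe sets). All 35 were higher on day 3 than on day 2, where 2889 of the 4369 called genes were higher and 1480 lower. The median difference of day 3 minus day 2 was 2.78 for members and 0.06 for all genes. Each scan day holds other mice, so day and mouse cannot be told apart beyond the spread between mice.

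Rps10, of the head of the small subunit, had the highest difference between days. On limbal arrays its signal was 7612 and 15267 on day 1, 1083, 162 and 2552 on day 2, and 24789, 40059 and 13090.3 on day 3. On corneal arrays it was 4995 and 15839.8 on day 1, 7478, 3038 and 54.5 on day 2, and 47670.4, 42741 and 18896 on day 3. All arrays of day 3 were above all arrays of day 2, and the means of day 3 and day 2 differed by 4.59 ± 0.63 (SE, limma F test adjusted p = 5.32e-05). Each adjusted p given here with a difference of day 3 and day 2 comes from the F test over all 3 days. It does not test day 3 against day 2 alone. Rpl27, of the large subunit, was higher on day 3 by 3.99 ± 0.61 (limma adjusted p = 0.000103), Rpl19 by 3.80 ± 0.62 (limma adjusted p = 0.000309) and Rpl8 by 3.76 ± 0.57 (limma adjusted p = 0.000172). Rpl8 sits close to the peptidyl transferase centre. Of the stalk, Rplp0 (2.88 ± 0.53) and Rplp2 (3.08 ± 0.55) were called and Rpl12 (0.02 ± 0.51, limma adjusted p = 0.99) was not. By subunit, 18 of 22 large subunit genes, 15 of 20 small subunit genes and 2 of 4 paralogs were called. Rps20 missed the threshold at 2.36 ± 0.88 (limma adjusted p = 0.062), and Rps27 was the lowest, at -0.52 ± 0.48 (limma adjusted p = 0.32).

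These calls moved with normalization and with the site. After quantile normalization 7 of 46 genes were called (15.2%, against 20.6% of all genes), and their median difference was 1.23, against 0.44 for all genes. On limbal arrays alone 33 genes were called (71.7%, against 15.9%), and on corneal arrays alone, where day 2 holds the array that stood apart, 7 (15.2%, against 9.71%). The median correlation of an array with the others was 0.26 to 0.32 on limbal arrays of day 2 and at least 0.49 on all arrays of day 3. The 99th percentile of the signal was 2417 to 4726 on day 2 and 14575 to 17948 on day 3. The part of array quality in the difference between days was not tested.

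Related genes were compared with the same tests from lists made with earlier results of these data known. Between limbus and cornea 0 genes were called by limma among 30 initiation factors (3 at an unadjusted p under 0.05), 10 elongation and nascent chain factors (0), 27 ribosome biogenesis factors (1), 10 genes of growth signalling to the ribosome (0) and 74 mitochondrial ribosomal proteins (8). Their median differences were -0.16, -0.14, 0.03, -0.01 and -0.08, in that order. Over all 13570 tested genes 911 had an unadjusted limma p under 0.05. Eif2b1, a subunit of the exchange factor that recharges eIF2 with GTP, differed by -1.18 ± 0.42 (limma adjusted p = 0.55), and Eif2b2, another subunit of it, by 0.97 ± 0.40 (limma adjusted p = 0.68). Fau, whose product is split to give a small subunit protein, differed by -0.07 ± 0.40. Between scan days 20 of 30 initiation factors (66.7%), 8 of 10 elongation factors (80%) and 13 of 27 biogenesis factors (48.1%) were called. So were 3 of 10 signalling genes (30%) and 30 of 74 mitochondrial ribosomal proteins (40.5%). The share called over all tested genes was 32.2%. The cytosolic members, at 76.1%, thus lay near the elongation factors, at 80%, in that share.

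Of the 48 genes, 24 have several probe sets, up to 6 for a gene, and they often disagreed. Over 8 mice, 78 pairs of probe sets of the same gene had a median correlation of their differences of 0.68, and 3927 pairs from different members had 0.65, or 0.66 and 0.53 without mouse 5. The 3 probe sets of Rps29 lay close together, at 0.80 ± 0.81, 0.61 ± 0.63 and 0.65 ± 0.66. Those of Rpl22 gave -0.03 ± 0.58, -0.67 ± 0.41 and 0.74 ± 0.43, and those of Rps27l -0.04 ± 0.46, 0.30 ± 0.43 and 0.77 ± 0.47. The 4 of Rpl41 gave -0.42 ± 0.52, 0.56 ± 0.43, 0.01 ± 0.39 and 0.39 ± 0.47. The other tested probe sets of Rps18 lay 0.66 and 0.72 below its brightest, which was at 0.54. For Rpl22, Rps27l, Rpl41 and Rps18 the sign of the difference thus changed with the probe set. The probe set with an unadjusted limma p under 0.05 belongs to Rps10, at -0.92 (adjusted p = 0.76), and was higher in limbus in 3 of 8 mice. Among the 44 tested probe sets that were not the brightest of their gene, 22 were higher and 22 lower in limbus.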

How the data were processed

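The authors deposited 1 intensity per probe set and array, linear and scaled so that the trimmed mean (2% off each end) was 500 on every array, per the values. The sources used here do not name the algorithm or software. Scan days came from the file headers. Of 45101 probe sets, 64 are controls, 34958 have 1 gene symbol in the platform annotation, 932 have several, and 9160 are not listed. Here log2(intensity + 89.4) was taken, and probe sets with a mean above the 40th percentile (8.27) were tested with limma 3.58.1 (R 4.3.3) with a variance trend and the mouse as a fixed term. Pairing by mouse comes from the titles: within a mouse, deviations of the limbal and corneal array from the group means had a median correlation of 0.30, over 0.1 in 7 of 8 mice. Scan days were compared with limma's F test on 8 mouse means or differences.

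Named genes were those past the threshold or, where fewer than 5 passed in a direction, the 5 of smallest p, plus genes fixed by role and up to 3 of each related list. The members and lists were chosen with earlier results of these data known. The tests were tried on simulated data, with noise drawn separately for each probe set. Between limbus and cornea, 0% of changes of 1 log2 unit and 50% of changes of 2 were called there in probe sets drawn at random. With all 90 tested member probe sets shifted instead, 0 were called at 1 log2 unit, 12 at 2 and 64 at 3. P-values measure the spread between the captures of these 8 mice. The number of arrays limits the precision.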

Additional observations from a re-analysis of the deposited data

Results flagged for a closer look

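Over 48 groups of 8 values of the named genes, 11 held a value far from the rest by Dixon's test, which chance gives for about 1 in 20 groups. The corneal array of mouse 5, or the difference taken from it, accounts for 9 of them. Its log2 signal was 7.38 for Rps18 (the other corneal arrays 14.93 to 17.54), 7.05 for Rps29 (14.45 to 16.64), 7.04 for Rps27l (10.45 to 12.43) and 8.79 for Rpsa (13.26 to 16.08). The limbal minus corneal difference of mouse 5 was 7.28 for Rps18, 7.62 for Rps29, 3.48 for Rps27, 3.93 for Rps27l and 4.24 for Rpsa, and the differences of these 5 genes in the other mice were at most 0.91. The limbal array of mouse 4 had a log2 signal of 7.52 for Rplp0, with the others at 10.21 to 12.59. Rpl7l1 in mouse 3 differed by -2.10, with the other mice at -0.88 to 0.07.

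In 3 cases every mouse of scan day 3 had the opposite sign to both mice of scan day 1: the means differed by -0.66 for Rpl11, by -0.87 for Rpl41 and by -0.65 for the members' median. The flag reads the sign alone, and some values lay near 0. Mouse 7 was at -0.01 for Rpl11 and at -0.00 for the members' median, and mouse 1 was at 0.03 for Rpl11. These contrasts of day 3 minus day 1 were not tested on their own. The limma F test over all 3 days called 0 genes. It gave 0 of the 46 members an unadjusted p under 0.05, against 746 of 13570 tested genes.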

How the results depend on the processing

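The count of ribosomal protein genes called between limbus and cornea was 0 under all 25 alternatives tried, and the count of probe sets 0 under 23. Leaving out each mouse gave 0 and 0, and moved the median difference between -0.43 (without mouse 5) and 0.20 (without mouse 3). Over all alternatives its highest value was 0.48, on scan day 1 alone, where 38 of 46 genes were higher in limbus, and without scan day 2 it was 0.02. With no replicate block 0 member genes and 0 member probe sets were called, with a median of -0.03. The pairing did matter over all tested genes, where 18 were called with it and 0 without it. Member counts of 0 in both cases cannot show an effect of the pairing. Of 373 values of the 15 named genes, 0 were called (lowest limma adjusted p 0.56) and 32 took the other sign. Rpl7l1, Rplp0 and Rps25 kept their sign in all alternatives. Rps25 was higher in limbus in every mouse, so leaving out mice or scan days could not change its sign. The scan day count of 35 genes fell to 7 after quantile normalization and to 7 with corneal arrays only, both chosen after seeing the data as were the other alternatives of that count, and ran from 25 (without mouse 6) to 35 (without mouse 3) with mice left out. The cause was not tested. Signals near or below the added constant limit Rpl39l, Rps27, Rpl22l1 and Rps25, and single limbal arrays of Rplp0 (94.7) and Rpl7l1 (118). The constant narrows differences there, and whether such signals lie above background was not tested. With an added constant of 16 the difference of Rps25 was 0.96.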
